A study of Caenorhabditis elegans with 4 samples.

Results

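Runs of 3 or more neighbouring NFYA-1 peaks were examined in L3 larvae of Caenorhabditis elegans, where a run is a chain of peaks on 1 chromosome with gaps of at most 3000 bp between the end of each peak and the start of the next. The runs were chosen by the positions of the peaks in the authors' combined peak list, which holds 4256 peaks. The rule gave 183 runs, which held 618 peaks (14.5% of the list). A further 1036 peaks lay in 518 pairs and 2602 stood singly, so that 3638 peaks were outside runs. NFYA-1 was mapped by chromatin immunoprecipitation and sequencing (ChIP-seq) with an antibody against green fluorescent protein (GFP). The worms were hermaphrodites of strain OP404, with the genotype unc-119(ed3) III and a bombarded transgene, wgIs404, that carries nfya-1::TY1-GFP-3xFLA together with a functional copy of unc-119, fed at 20 °C. The genotype, which all samples share, lists no mutation of the untagged nfya-1 gene, and the tagged protein comes from a transgene at a site other than its own. There were 2 ChIP samples and 2 input samples, with 0 peak lists for the inputs here. Nothing in the labels states that the ChIP samples came from separate cultures, and whole larvae were used, so binding in few cells and weak binding in many cannot be told apart.

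NFYA-1 is the worm A subunit of NF-Y, a complex of 3 proteins. The B and C subunits pair through histone folds and bend DNA much as histones do, and the A subunit joins them and reads the CCAAT box, a short motif common in animal promoters. In C. elegans NF-Y is known to restrain the Hox gene egl-5 outside the tail. The worm genome is compact, with many genes a few kilobases apart, so separate promoters can lie within the length of a run. No gene was assigned to a peak, because no annotation of the files' build (WormBase WS180) was used here. Strength below means −log10 of the q value that the authors' peak caller (PeakSeq) gave a peak, and rank 1 is the strongest of the combined list.

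Most runs were short chains. There were 131 runs of 3 peaks (71.6%), 40 of 4, 9 of 5, 1 of 6 and 2 of 7. The median span was 5800 bp (interquartile range 4340 to 6790 bp), with extremes of 1087 and 20354 bp. Runs of 3 had a median span of 5427 bp and runs of 4 had 6443.5 bp. Peaks covered a median of 45.6% of a run's span (16.7 to 95.9%). All runs together spanned 1119 kb, or 1.12% of the summed chromosome spans. The 435 gaps inside runs had a median of 1118 bp (interquartile range 537.5 to 1958.5 bp), and 44.6% of them were under 1000 bp. Peak centres inside runs were a median of 2094.5 bp apart. The smallest gap anywhere in the combined list was 205 bp. At the limit of the rule, the largest joined gap was 3000 bp, on chromosome V before the peak at 5849318 to 5850200, and it made a pair. The smallest gap not joined was 3005 bp, before the single peak on V at 983107 to 983468. There were 30 gaps in the last 100 bp up to the limit and 21 in the next 100 bp beyond it.

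The longer of the 2 runs of 7 peaks lay on chromosome IV from 4019726 to 4035362 (WS180) and spanned 15637 bp. The preceding peak was 144823 bp away. Its strongest peak, at 4024093 to 4025064, had a strength of 28.9 in the combined list (rank 636), 19.4 in replicate 1 and 11.7 in replicate 2. The first peak, at 4019726 to 4020738, was nearly as strong at 24.5, with 17.3 in replicate 1 and 13.0 in replicate 2. Both were thus found in each ChIP sample, as were the peaks at 4025818 to 4026371 (12.7 combined, 10.3 and 7.67 in replicates 1 and 2) and 4034787 to 4035362 (15.3 combined, 6.01 and 6.53). The fifth peak, at 4028094 to 4028631, was called in replicate 2 alone, at 3.79, against 5.02 in the combined list. The peaks at 4021790 to 4022764 and 4031016 to 4032001 overlapped no replicate peak and were near the weak end of the list, at 3.66 and 3.67. The 7 widths ran from 538 to 1013 bp, all above the list's median of 451 bp. The run was thus a chain of separate peaks of unequal strength, none of them very broad.

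The other run of 7 peaks lay on chromosome II from 14036589 to 14050838, over 14250 bp. It held a pair of strong peaks. The peak at 14045051 to 14046821 had a strength of 89.3 in the combined list (rank 69), 54.6 in replicate 1 and 35.2 in replicate 2. The peak at 14039858 to 14040909 had 64.8 (rank 148), with 34.3 in replicate 1 and 30.3 in replicate 2. Between them lay a peak of 23.4 at 14043810 to 14044681, also called in each replicate (14.2 and 6.17), and a weak one of 4.84 at 14041273 to 14041929, called in replicate 2 alone (4.50). The 3 outer peaks had similar strengths of 9.74, 10.3 and 9.81. Of these, only the peak at 14048974 to 14049341 was called in both replicates (4.65 and 4.13). The outer pair of ends, at 14036589 to 14037114 and 14050294 to 14050838, was called in replicate 1 alone, at 5.71 and 4.03.

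The run of 6 peaks, on the X chromosome from 11462944 to 11483297, was also the longest, at 20354 bp. It differed in form from the runs of 7, because peaks covered 83.2% of it. The central peak, at 11470272 to 11477264, was 6993 bp wide and had a strength of 89.7 (rank 67), with 51.96 in replicate 1 and 34.3 in replicate 2. To its left, the peaks at 11462944 to 11466042 and 11466485 to 11467777 had strengths of 17.98 and 20.2 and were found in both replicates. They had 6.78 and 12.6 in replicate 1, and 6.12 and 7.38 in replicate 2. The peak between these and the central one, at 11468714 to 11469254, had 8.06 and no replicate peak. To its right, 2 peaks of 2714 and 2303 bp had 4.51 and 5.99 and no replicate peak. The run thus joined 1 broad strong peak with weaker neighbours at gaps of 382 to 1018 bp.

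**Figure D1:**
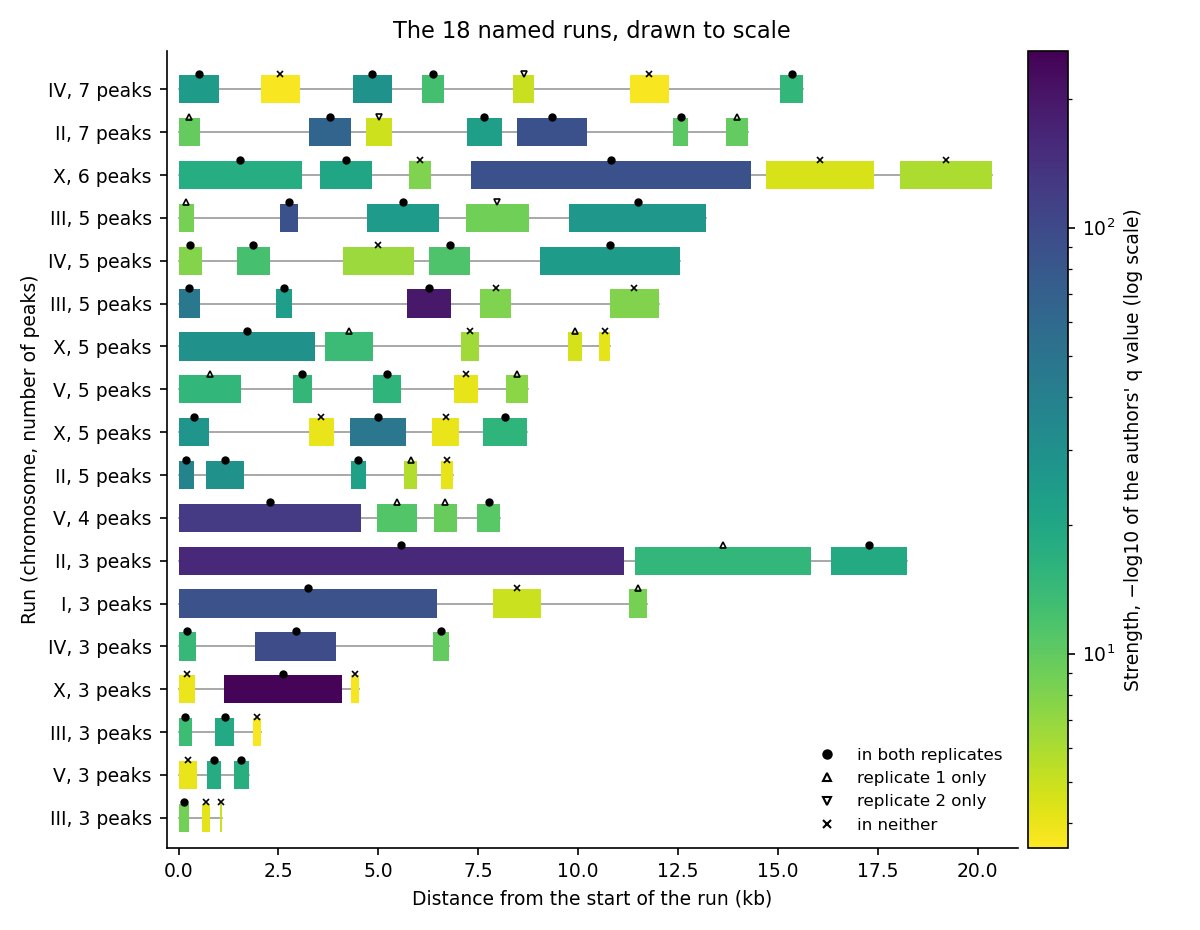
Each row is 1 of the 18 runs named by rule, with its chromosome and number of peaks on the vertical axis and distance from the start of the run (kb) on the horizontal axis. Boxes are peaks to scale, colour gives −log10 of the authors' q value on a log scale, and the mark above a box shows in which replicate lists a peak overlaps it. Runs range in form from chains of well separated peaks (IV, 7 peaks, 35.9% covered) to nearly continuous ones (II, 3 peaks, 95.9% covered).

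The strongest peak within any run was the rank 3 peak of the combined list, on X at 16929155 to 16932120. It had a strength of 251 (152.6 in replicate 1 and 115.3 in replicate 2), and its 2 neighbours, 715 bp to the left and 226 bp to the right, had 3.96 and 3.69 and no replicate peak. On chromosome III the strongest member, at 11828841 to 11829929 (rank 7, strength 198.5), stood in the middle of a run of 5. There the 2 peaks to the left, at 46.2 and 23.7, were found in both replicates, and the 2 to the right, at 8.05 and 7.92, in neither. On chromosome II the run from 10541812 to 10560045 held peaks of 11151, 4411 and 1917 bp with strengths of 160.4, 15.2 and 18.9, and gaps of 270 and 487 bp. On V the run from 723768 to 731821 began with a peak of 4570 bp and strength 123.5, followed by 3 peaks of 9.47 to 11.3. On IV the run from 15025319 to 15032083 had its strongest peak in the middle (97.8) between peaks of 14.4 and 9.91, each found in both replicates. On chromosome I the run from 7078936 to 7090666 began with a peak of 6473 bp and strength 87.99, followed by peaks of 4.97 and 8.63. In all 6 of these runs the leading peak was called in both replicates, and in 5 of them it was also the widest peak of its run, the run on III being the exception.

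Other large runs differed in how far 1 peak stood above the rest. The run on V from 11075390 to 11084136 had 3 peaks of almost equal strength, 15.2, 15.01 and 15.7, and then 4.09 and 7.36. The run on IV from 8525827 to 8538367 ranged from 6.73 to 24.3, and that on II from 14269066 to 14275930 fell along its length, with 37.7, 29.8, 22.0, 5.71 and 4.08. The run on III from 7718239 to 7731441 was led by a peak of only 447 bp (strength 88.7), while the next in strength, also its widest at 3431 bp, had 26.1. On X, the run from 15606600 to 15617399 was led by a peak of 29.97, against 13.8 for the next, and that from 5811787 to 5820517 by a peak of 46.9, against 27.7. The 3 shortest runs, of 1087, 1753 and 2057 bp, lay on III from 12589300 to 12590386, on V from 4730013 to 4731765 and on III from 4720823 to 4722879. They held 1, 2 and 2 peaks found in both replicates, and the narrowest run peak of all, of 37 bp, was in the first of them.

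A run can also be picked for its support, after its values were seen. On III, the run from 12152036 to 12157835 was the only run of 5 or more whose peaks were all found in both replicates. Its 5 peaks were 480 to 626 bp wide, with strengths of 17.0, 32.3, 90.4, 42.0 and 30.5 in the combined list. In replicate 1 they had 10.2, 23.8, 59.5, 22.6 and 18.5, and in replicate 2 they had 5.20, 11.5, 56.5, 16.6 and 11.3. The third peak was the strongest and the first the weakest in all 3 lists.

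Close spacing was then set against the local density of peaks. The number of gaps of at most 3000 bp was compared with the number given by a closed formula for random placement. In it the peaks of each 200 kb bin fall at random, with every position of the bin equally likely. This is called even placement below and does not mean regular spacing. Since positions chose the runs, this is a description and carries no test. There were 953 such gaps among 4250 (22.4%), against 620 from the formula, a ratio of 1.54 (exact Poisson 95% interval 1.44 to 1.64 for the observed count). The formula put 286 peaks in runs, against 618 observed, a ratio of 2.16. Its values for peaks in runs, here and below, are approximate, because it takes neighbouring gaps as independent. The surplus was at the short gaps. Gaps up to 500 bp were 1.73 times as many as in the formula (193 against 112). None of them was under 205 bp, whereas the formula also counts gaps shorter than that, so the ratios are not corrected for this. Gaps between 500 and 1000 bp were 1.87 times as many as in the formula (202 against 108), those between 1000 and 1500 bp 1.51 times and those between 2000 and 2500 bp 1.21 times. Between 4000 and 4500 bp the counts met (86 against 87.2), and between 6500 and 7000 bp there were 50 against 75.2.

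**Figure D2:**
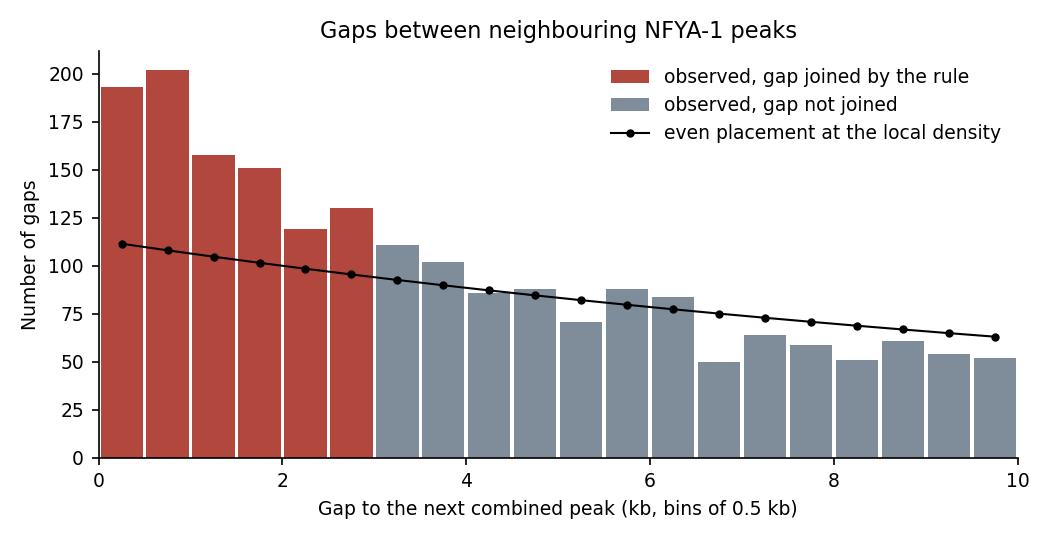
Bars count the gaps between neighbouring combined peaks in bins of 0.5 kb (horizontal axis, kb), in red where the rule joins them and in grey where it does not. The black line gives the counts for even placement (uniform at random) at the local density. The bars exceed it at the short gaps (202 against 108 between 500 and 1000 bp). They fall below it in each bin from 6500 to 10000 bp (50 against 75.2 in the first of these).

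Runs held a larger share of peaks where peaks were dense, and the ratio to the formula was smallest there. In 200 kb bins with 20 to 32 peaks, 83 of 253 peaks (32.8%, exact binomial 95% interval 27.1 to 39.0%) lay in runs, against 22.2% from the formula. In bins with 10 to 14 peaks the share was 16.3% against 6.53%, and in bins with 1 to 4 peaks it was 1.96% (6 of 306) against 0.50%. The excess in percentage points was thus larger in the densest class than in the sparsest, while the ratio of close gaps to the formula was 1.29 in the densest of these classes and 2.34 in the sparsest. Intervals of this kind treat peaks as independent, which peaks of a run are not, and they cover counting error only.

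By chromosome, III held the most runs, 54 with 185 peaks, or 3.92 runs per Mb (exact Poisson interval 2.95 to 5.12). Of its peaks 20.1% lay in runs, against 12.2% from the formula. Chromosome I had 735 peaks but only 21 runs with 65 peaks, and 8.84% of its peaks in runs (6.89 to 11.1%) against 7.11% from the formula. Its ratio of close gaps was the smallest, at 1.25 (1.05 to 1.48). Chromosome V was the opposite case. It had 31 runs with 103 peaks and 16.2% of its peaks in runs against 3.32% from the formula, and its ratio of close gaps was the largest, at 2.13 (1.79 to 2.52). X had 19 runs with 68 peaks, the fewest runs per Mb (1.08) and 11.9% of peaks in runs against 3.38%. Chromosomes II and IV had 24 and 34 runs, and ratios of 1.56 and 1.76. Runs were found in 83 of 103 windows of 1 Mb. The window on III from 12000001 to 13000000 held 9 runs with 30 of its 104 peaks, and the one on IV from 2000001 to 3000000 held 5 runs with 19 of its 44 peaks (43.2%).

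**Figure D3:**
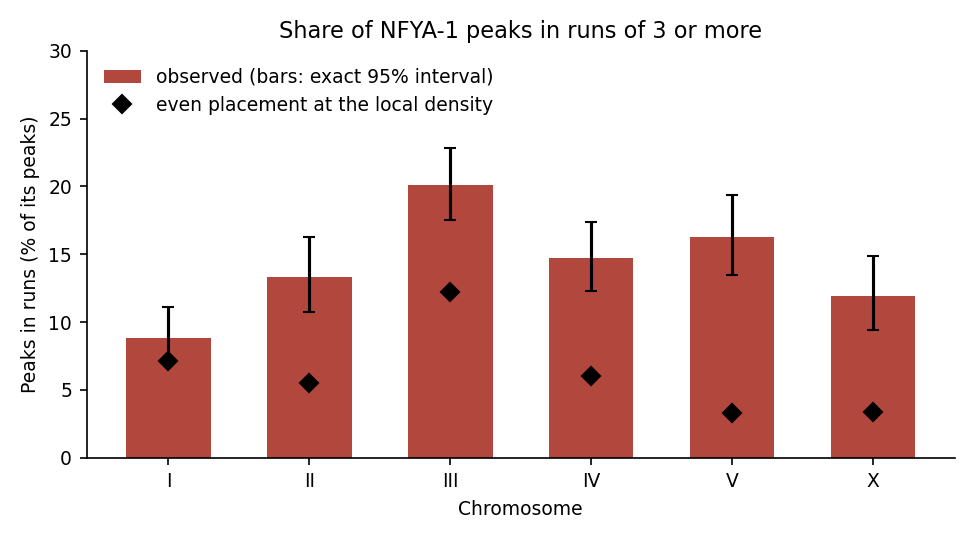
Bars show the share of each chromosome's combined peaks that lie in runs (vertical axis, %, with exact binomial 95% intervals as error bars). Diamonds show the share for even placement (uniform at random) at the local density. The bar stands highest on III (20.1%), the diamond lies within the interval on I alone (8.84% against 7.11%), and the gap between bar and diamond is widest on V (16.2% against 3.32%).

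Along the autosomes, run peaks lay in the chromosome centres about as often as other peaks. The centre was taken as the central 50% of a chromosome's span. It held 310 of 550 autosomal run peaks (56.4%, interval 52.1 to 60.6%), against 1818 of 3136 other autosomal peaks (58.0%, 56.2 to 59.7%) and 57.7% of all autosomal peaks. The chromosomes differed among themselves. On I the centre held 76.9% of run peaks against 57.5% of other peaks, and on II 45.7% against 60.2%, though these rest on 21 and 24 runs. On X it held 28 of 68 run peaks (41.2%) against 240 of 502 others (47.8%).

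The central share was lower when the rule was applied to strong or replicated peaks alone. The stronger 50% of the combined list gave 41 runs with 132 peaks. Of its autosomal run peaks 37.98% (49 of 129) were central, against 56.0% of its other autosomal peaks, and 16 of its 40 autosomal runs had a central midpoint (interval 24.9 to 56.7%). In the weaker 50% the share was 54.5% (30 of 55, interval 40.6 to 68.0%), against 61.1% of its other autosomal peaks. Combined peaks found in both replicates gave 35 runs, with 34.3% of autosomal run peaks central (37 of 108), against 56.0% of the other peaks. In the replicate 2 list the share was 36.4% (44 of 121), against 56.1% of other peaks. No such difference was seen in the replicate 1 list, with 56.5% (135 of 239) against 56.8%. Counted by midpoints, 12 of 34, 14 of 37 and 43 of 73 autosomal runs were central in these 3 lists (intervals 19.7 to 53.5%, 22.5 to 55.2% and 46.8 to 70.3%). These lists share peaks, so they are not independent. On X, the stronger 50% and the peaks of both replicates each gave 1 run.

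Run peaks were wider than other peaks and differed less in strength. Their median width was 586.5 bp (interquartile range 414 to 973 bp), against 436 bp (350 to 641 bp) for other peaks, 486 bp for peaks in pairs and 421.5 bp for single peaks. Width grew with the number of neighbours in this order, and 425 of 618 run peaks (68.8%, 65.0 to 72.4%) exceeded the list's median of 451 bp, against 46.8% of other peaks. Regions of 1500 bp or wider made up 12.3% of run peaks (76) and 5.09% of other peaks (185). Of the widest 20% of the list 213 of 852 peaks lay in runs (22.1 to 28.0%), against 8.07% of the narrowest 20%. Between given peak centres a wide peak leaves less room for a gap, so width is not independent of the rule. With peaks joined by the distance between their centres, at most 3500 bp, 64.5% of run peaks still exceeded the median width, in an alternative chosen after seeing the data. On every chromosome the median was wider in runs, from 513 against 406 bp on III to 763 against 531 bp on X.

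The median strength was 10.6 in run peaks (interquartile range 5.77 to 23.7), against 9.38 in other peaks (5.62 to 18.8). Run peaks were in the stronger 50% of the list in 336 cases (54.4%, 50.3 to 58.3%), against 49.3% of other peaks. With peaks joined by centre distance, at most 3500 bp, the share was 52.2% (275 of 527, 47.8 to 56.5%). That interval includes 50%, and this alternative was chosen after seeing the data. From the strongest 20% of the list to the weakest, the shares of peaks in runs were 18.7, 14.3, 12.8, 11.8 and 15.02%, so that the strongest peaks were in runs more often than the 14.5% of all peaks and the weakest about as often. Of the 100 strongest peaks 21 were in runs. On X the order was turned round, with a median of 6.76 in run peaks against 7.44 in other peaks.

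**Figure D4:**
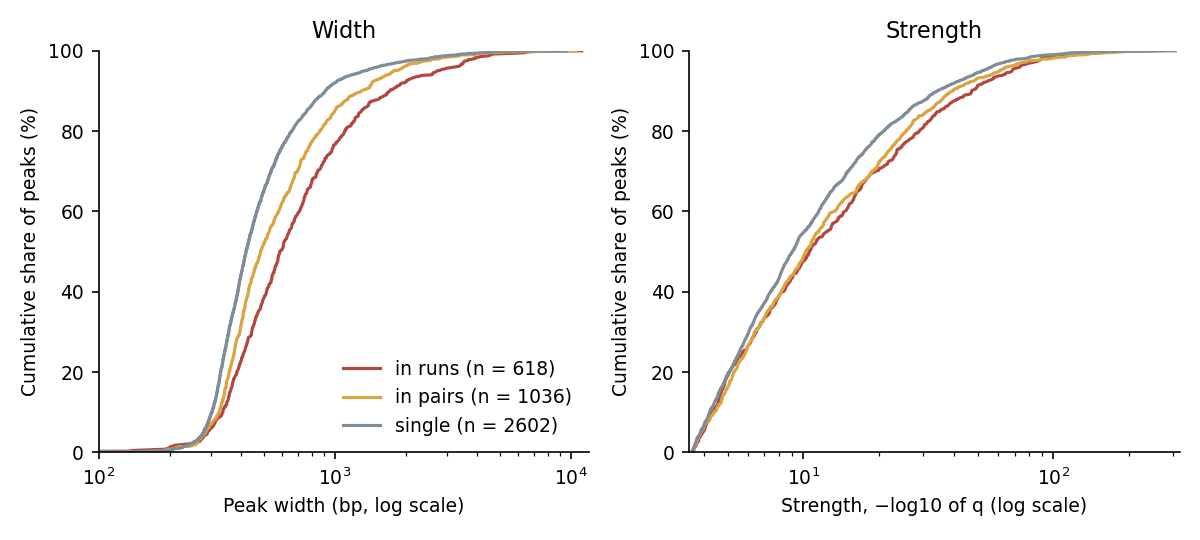
Each curve gives the cumulative share of combined peaks (vertical axis, %) up to a given width in bp (left) or strength, −log10 of q (right), on log axes, for peaks in runs, in pairs and single peaks. Peaks under 100 bp lie to the left of the width axis. The width curves part (medians of 586.5, 486 and 421.5 bp), while the strength curves stay close (10.6, 10.2 and 9.06).

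Within a run, strengths were spread about as widely as among peaks taken from the whole list. The difference between strongest and weakest peak had a median of 21.4, with a range of 0.696 to 247 over the 183 runs. In runs of 3 the strongest peak ranked at a median of 17.8% of the list, the next at 46.7% and the weakest at 79.2%. For 3 peaks taken from the list without regard to place, the medians would be 20.6, 50.0 and 79.4%. A run had a member of the strongest 20% in 110 of 183 cases (60.1%, 52.6 to 67.3%), against 52.4% for independent peaks at the whole list's rate. Run peaks themselves were in the strongest 20% more often (25.7%, against 20.0% of all peaks), so this reference is not matched to them. All members were in the stronger 50% in 27 runs (14.8%) and none in 16 (8.74%), where independence at the whole list's rate gives 10.5% for each. Here too the reference is not matched, because 54.4% of run peaks were in the stronger 50%. The strengths of neighbouring peaks showed little correlation in any class of distance. Spearman's rho between the ranks of neighbouring peaks was 0.02 for the 395 pairs of neighbours up to 1000 bp apart, 0.08 for 558 over 1000 and up to 3000 bp apart, 0.06 for 1021 over 3000 and up to 10000 bp apart and 0.04 for 2276 farther apart. These are correlations across sites of 1 list.

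In the combined list at the limit of 3000 bp, the strongest peak stood inside the run somewhat more often than run sizes alone would give. It was neither first nor last in 90 of 183 runs (49.2%, 41.7 to 56.7%), against 38.9% from the run sizes. At a gap limit of 5000 bp the share was 42.5% (36.9 to 48.3%), with no reference computed for those runs. In the other alternatives it was also lower than 49.2%. It ran from 41.0% in the replicate 2 list (25.6 to 57.9%) to 46.3% in the stronger 50% of peaks (30.7 to 62.6%). The interval of every alternative includes 38.9%, though most rest on fewer runs and none has its own reference. In runs of 3 at the limit of 3000 bp the strongest peak was the middle one in 57 of 131 (43.5%, 34.9 to 52.4%), against 38 at the left end and 36 at the right. The widest peak was the middle one more often still, in 66 of 131 (50.4%, 41.5 to 59.2%), against 33.3% if every place were as likely. Median widths were 538, 701 and 515 bp from left to right, and median strengths 9.92, 13.7 and 9.79. Strength and width went together, so that the strongest peak was also the widest in 93 of 183 runs (50.8%, 43.3 to 58.3%), where run sizes alone give 30.6%. The rule measures gaps from edge to edge, so between given peak centres a wider peak leaves shorter gaps on both sides. Equal places may thus not be a neutral reference for the widest peak, nor for the strongest. Whether width affected the place in the run was not tested. Place in the run was not examined with peaks joined by centre distance.

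Support by the replicates was close to that of the list at large. Both replicates held a peak overlapping 323 of the 618 run peaks (52.3%, 48.2 to 56.3%), against 47.5% of other peaks and 48.2% of all peaks. Overlap with neither replicate was found for 159 (25.7%), against 28.0% of other peaks and 27.6% of all. The rest overlapped replicate 1 alone (124) or replicate 2 alone (12). At like strength the shares were alike. In the stronger 50% of the list 88.1% of run peaks and 87.7% of other peaks were found in both replicates, and in the weaker 50% 9.57% and 8.56%. Since the combined list may rest on the same reads as the replicate lists, these shares are not independent support. Run peaks of both replicates had a median strength of 12.9 in replicate 1 and 9.48 in replicate 2, and 82.97% of them were stronger in replicate 1. Other peaks of both replicates had medians of 11.6 and 8.37, and 81.9% were stronger in replicate 1, so this order belongs to the list at large.

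A run was seldom recovered whole. All members were found in both replicates in 26 runs (14.2%, 9.50 to 20.1%), against 9.35% if support were spread over peaks independently at the whole list's rate. No member was found in both replicates in 15 runs (8.20%, 4.66 to 13.2%), against 11.7% on that basis. At least 1 member was in neither replicate in 116 runs (63.4%, 55.96 to 70.4%), close to the 65.7% on that basis. Both replicates held 52.3% of run peaks against 48.2% of all peaks, so references at the whole list's rate are not matched to run peaks. Support followed strength. In runs of 3, both replicates held 87.8% of the strongest peaks (115 of 131), 49.6% of the next and 20.6% of the weakest, and 53.4% of the weakest were in neither. The replicates mostly named the same leader. Among 104 runs with at least 2 peaks found in both, each matched to its own replicate peak, the strongest was the same peak in replicates 1 and 2 in 86 (82.7%, 74.0 to 89.4%), where the numbers of such matched members alone give 42.8%.

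**Figure D5:**
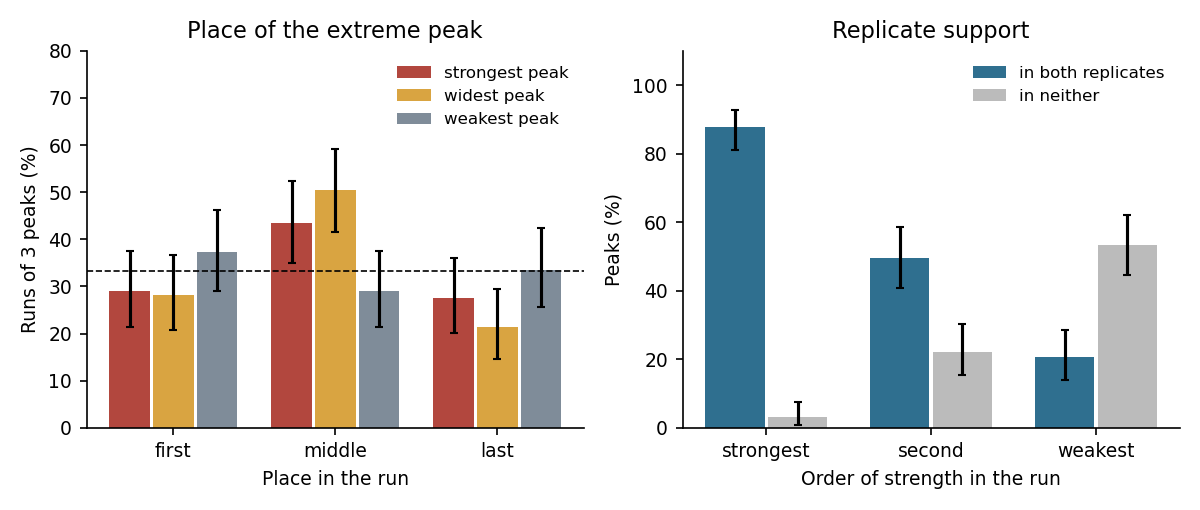
For the 131 runs of 3 peaks, the left panel shows in what share of runs (vertical axis, %) the strongest, widest and weakest peak stood first, middle or last, with a dashed line at 33.3%. The right panel shows the share of strongest, second and weakest peaks found in both replicates or in neither, with 87.8% of the strongest and 20.6% of the weakest peaks in both, and error bars are exact binomial 95% intervals.

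Each replicate list was also put through the rule itself. Replicate 1, with 3037 peaks, gave 81 runs with 265 peaks (8.73%), and replicate 2, with 2188 peaks, gave 39 runs with 127 peaks (5.80%). The shorter lists thus had fewer runs, but close gaps exceeded the formula by similar ratios, 1.57 in replicate 1 and 1.71 in replicate 2. Of the replicate 1 runs 72 (88.9%) overlapped a run of the combined list, and of the replicate 2 runs 33 (84.6%). Seen from the combined list these are 39.3% and 18.03% of its 183 runs, and 28 runs (15.3%) were matched in both replicates. By chromosome, 12 of these 28 lay on III, 5 on II, 4 each on IV and V and 3 on I. None of the 19 runs on X was among them, and 0 of 19 is compatible with a share as high as 15.8% (3 counts). A replicate 1 peak bridged at least 2 members in 2 runs, and a replicate 2 peak in 0 (0 of 183, up to 1.64% by the same limit).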

How the data were processed

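ChIP-seq peaks of 2 replicates were analysed as 3 lists, one per replicate and one combined. WormBase WS180 is the build and PeakSeq the caller, per the file headers. Each peak carries a q value given by the authors (a p-value adjusted for multiple tests), and its deposited start and end columns. The sources used here give neither the aligner, versions, control and threshold nor how the combined list was made. No read counts were used, so depth is unknown.

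Combined peaks were sorted and joined at gaps (next start minus previous end) of at most 3000 bp, and runs of at least 3 peaks were kept. Overlap means at least 1 bp. The even-placement formula assumes uniform random positions, uses peak number and peak-free length of each 200 kb bin, and draws nothing. The joining rule and the formula were checked on simulated peak positions, whose values are not used. The largest peak end on a chromosome served as its length. Named runs are the 10 with the most peaks (ties by span), the 3 longest, the 3 shortest and, per chromosome, the one holding the strongest member. Members, lists and comparisons were chosen with earlier results of these data known, and no significance test was run. Intervals are exact at 95%, and a count of 0 is given with 3 counts as its limit. Genome sequence and annotation of WS180 were not used here. Python 3.11.15, numpy 2.4.6, pandas 2.3.3, scipy 1.17.1 and matplotlib 3.10.9 were used. Alternatives were other gap limits, bins, centres, overlaps, lists and a prior joining of close peaks.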

Additional observations from a re-analysis of the deposited data

How the results depend on the processing

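Over 9 results and 61 alternatives, 29 values stayed within the interval of the reported value (or within 1.5 times, for the run count) and 32 moved beyond it, with 0 reversals of the ratio of close gaps to even placement. Stricter or shorter lists leave fewer neighbours by construction. With a gap limit of 2000 bp there were 118 runs with 9.26% of peaks and a ratio of 1.65, and with 5000 bp 301 runs, 25.3%, a ratio of 1.37 and 62.1% of run peaks in the wider 50%. In the stronger 50% of peaks there were 41 runs with 6.203% of peaks, a ratio of 1.80, 37.98% of autosomal run peaks central, 59.8% in its stronger 50% and 88.6% in both replicates. With peaks up to 500 bp apart joined first, 10.1% of peaks were in runs and the ratio was 1.36. With either replicate's list alone, there were 39 to 81 runs with 5.80 to 8.73% of peaks and a ratio of 1.57 to 1.71. Of autosomal run peaks 36.4 to 56.5% were central. Of all run peaks 57.7 to 65.4% were in the stronger and 64.6 to 73.2% in the wider 50%. The strongest peak was inside in 41.0 to 43.2% of runs, and it was also the widest of its run in 56.4 to 63.0%. A central 40% held 48.4% of autosomal run peaks. A reciprocal overlap of 50% left 44.7% of run peaks in both replicates. Added after seeing the data, peaks of both replicates alone gave 35 runs, 5.41% of peaks and a ratio of 1.68, and joining by centre distance gave 64.5% in the wider 50%. The cause of the move in the central share was not tested. No paired analysis was possible because no comparison between groups was made. Depth is unknown, so its effect on the weak members was not tested.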

Other observations

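In 3 of 183 runs (1.64%, 0.34 to 4.72%), singled out after their values were seen, no member overlapped a peak of either replicate. Of all combined peaks 27.6% overlapped neither replicate, and no reference for whole runs of such peaks was computed. The 3 runs lay on chromosome I from 8288662 to 8294173, on II from 12659889 to 12665376 and on X from 13917274 to 13920936. Each held 3 peaks, and their strongest members had strengths of 4.71, 6.65 and 6.41 in the combined list. The run on X followed a stretch of 105099 bp without a peak.

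In 2 other runs, also singled out afterwards, a replicate 1 peak spanned members that the combined list gives as separate peaks. On V from 14364331 to 14369845, replicate 1 called the first 2 members as 1 peak of strength 101.6, and replicate 2 called them apart, at 93.7 and 25.4. The combined list gave them 119.5 and 51.9 at a gap of 316 bp. On III from 12368205 to 12373582, the first 2 members, at 27.7 and 7.77 in the combined list and 217 bp apart, were 1 peak of 24.3 in replicate 1, and replicate 2 called only the first, at 11.5.

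Members in neither replicate lay about as far from the strongest peak of their run as members found in both did; members of 1 replicate were not compared. The median distance to it was 1985 bp for 154 such members and 1950.5 bp for 160 members found in both replicates.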
